A study of Rattus norvegicus with 12 samples.

Results

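The recovery of the pubocaudalis, a pelvic floor muscle, was followed without lactation by setting 3 muscle RNA libraries taken 3 weeks after simulated birth injury (3wk SBI) against 3 taken 1 week after it (1wk SBI). These are 6 of the 12 libraries sequenced, and all genes that passed a low-count filter were compared, 14596 of the 30206 in the table. All animals were female Sprague-Dawley rats of 3 months that received the injury, a balloon distention of the vagina in late pregnancy, and in both non-lactating groups the pups were taken away after delivery. The other 6 libraries, 1wk SBI + Lac and 3wk SBI + Lac, came from injured dams that nursed, and enter here through the shared estimate of spread and as a second course. The injury model strains the muscle as a vaginal delivery would, and no uninjured or never-pregnant muscle was sequenced, so 1 week is the earliest point and not a baseline. Each library held the RNA of 2 rats, so every n below is 3 pools per group, and different rats gave the 2 time points. The study also calls these pools technical replicates, and p-values measure the spread between pools only.

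A skeletal muscle that loses fibers rebuilds them from satellite cells, stem cells that lie along the fiber, divide as myoblasts, fuse with each other and then switch on embryonic and neonatal forms of the contractile proteins. As the new fibers mature and their nerve contacts settle, the embryonic forms give way to adult ones, and acetylcholine receptor genes that a young or denervated fiber expresses along its length become restricted to the junction. Macrophages clear debris early and fibroblasts lay down a provisional matrix that is later remodelled. The comparison asks which of these programs stood higher or lower at 3 weeks than at 1 week.

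The 2 time points differed in how the counts were made. At 1 week every deposited value was a whole number, whereas 31.1% to 44.0% of the values of the 3wk SBI libraries carried decimals, so time and counting cannot be told apart in a comparison of the 2 groups. A total of 30 genes were at 0 in all 1-week libraries with 100 or more counts over the 3-week libraries, 27 of them without a symbol, and these were left out. Library totals were 41201635 to 51662983 counts in 1wk SBI and 10082734, 17334602 and 75634391 in 3wk SBI, so the smallest quantity that 3 counts represent ran there from 0.0360 to 0.322 normalized CPM, which are counts scaled by TMM to an equal library size. The first principal component, 48.5% of the variance, placed the 1wk SBI pools at -44.0, -35.6 and -16.8 and 3wk SBI replicates 1 and 2 at 67.2 and 41.3, while 3wk SBI replicate 3, the deepest library, lay at -12.1 beside the 1-week pools. Whether this library carries the right label, how far its animals had recovered, or whether depth placed it there was not tested. Every 3wk SBI mean includes it. A fit without it rests at 3 weeks on replicates 1 and 2, the shallowest of the 6 libraries. Counts of called genes that the removal of 3wk SBI replicate 3 moved are given without it beside the result, and for some lists the median too. Adult muscle genes were present in every pool, with titin (Ttn) at 14981 to 27022 and muscle creatine kinase (Ckm) at 10356 to 23549 normalized CPM over the 6 pools.

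More genes fell than rose. A gene was termed called when edgeR's quasi-likelihood test gave it an adjusted p below 0.05 and its log2 fold change exceeded 1 in size. By this rule 54 genes were higher in 3wk SBI, 0.37% of those tested, and 161 were lower, 1.1%. At these shares a short list would often hold 0 or 1 call, so such a count below says little about the list. Without the fold cutoff 385 genes (2.64%) were higher and 354 (2.43%) lower, so the excess of falls was a feature of the large changes. The median log2 fold change over all tested genes was -0.01. Every 3wk SBI pool lay above every 1wk SBI pool for 54 of the 54 genes called higher, against 10.2% of all genes, and below for 160 of the 161 called lower, against 11.4% of all genes. The calls were made from these same pools, so this separation largely follows from the call and adds no support to it. With 3wk SBI replicate 3 left out the counts were 106 and 448, without 1wk SBI replicate 3 they were 135 and 268, and leaving out any of the other 4 pools gave 17 to 34 higher and 54 to 98 lower. Of the 215 called genes, all 215 kept their sign in each of these 6 fits, which groups without overlap make nearly certain. Their calls were less steady: from 70, without 1wk SBI replicate 1, to 210, without 1wk SBI replicate 3, were called again.

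**Figure D1:**
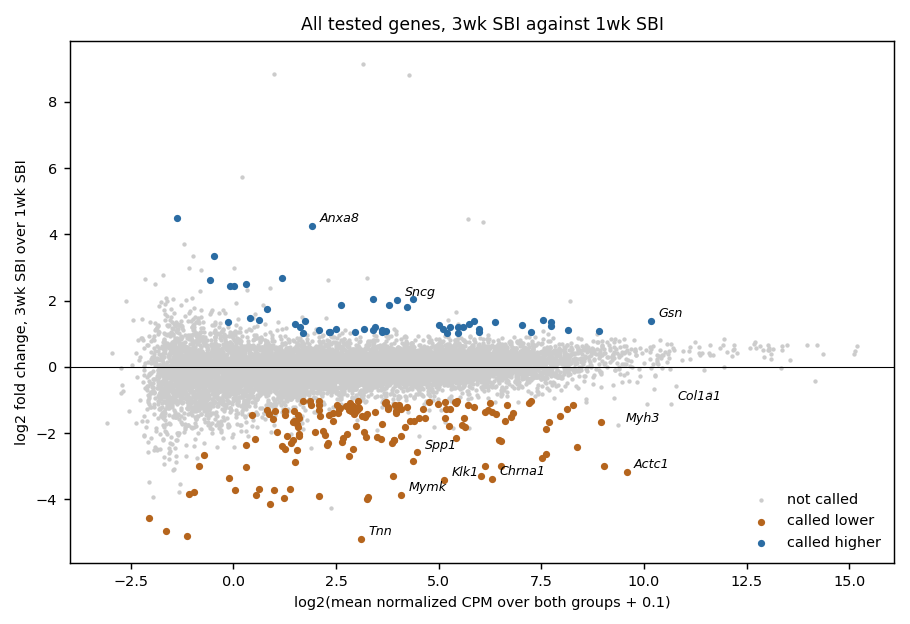
Each point is a tested gene with counts in both groups, with the log2 of its mean normalized CPM over both groups plus 0.1 on the x axis and the log2 fold change of 3wk SBI over 1wk SBI on the y axis. Genes called lower (brown, 161 in all) outnumber those called higher (blue, 54 in all), 1 gene of each kind with 0 counts in a group is not drawn, and Myh3 and Col1a1, labelled grey points, were not called.

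**Figure D2:**
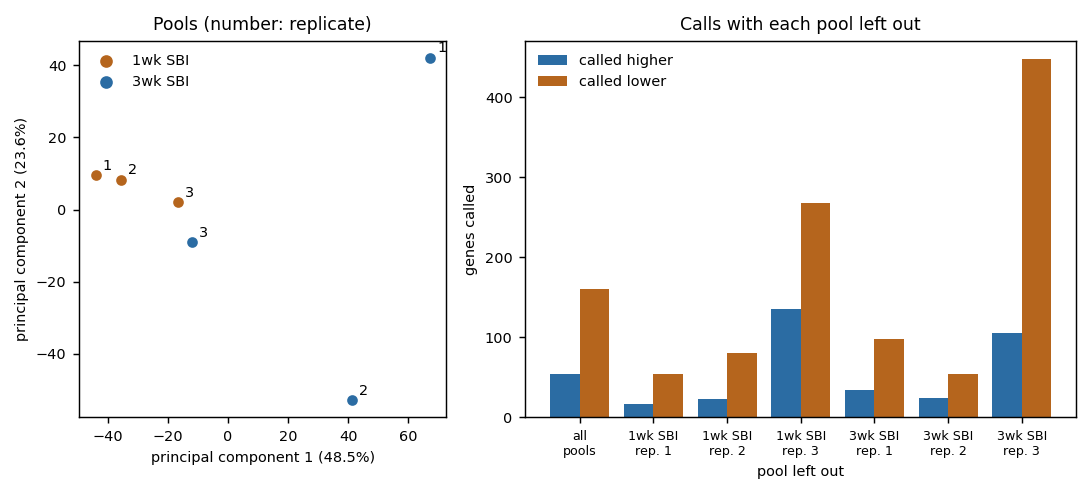
Left, the 6 non-lactating pools on the first 2 principal components of log2 CPM, in percent of variance, where 3wk SBI replicate 3 lies beside the 1wk SBI pools. Right, bars from 0 give the genes called higher and lower with all pools and with each pool left out, from 17 to 135 higher and from 54 to 448 lower.

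With all pools, genes of the regenerating myofiber gave the most calls of any list. Of 24 tested members of a list of embryonic and regenerating fiber genes, 12 were called lower and 0 higher. Over all genes tested 1.1% were called lower and 0.37% higher. The median log2 fold change of the list was -1.72. In 17 of the 24 every 3wk SBI pool lay below every 1wk SBI pool, against 11.4% of all genes tested. Mymk, which encodes the fusion protein myomaker, stood at 55.6, 25.7 and 14.2 normalized CPM in 1wk SBI replicates 1 to 3 and at 1.72, 0.991 and 3.02 in 3wk SBI replicates 1 to 3. It fell by 3.86 on the log2 scale (SE 0.53, adjusted p = 0.0062). Mymx, the gene of its fusion partner myomixer, went from 19.2, 27.7 and 5.86 to 1.5, 0.867 and 1.10 normalized CPM, a log2 fold change of -3.98 (SE 0.71, adjusted p = 0.0148). For both fusion genes the lowest 1-week pool was well above the highest 3-week pool, and 1wk SBI replicate 3 was the lowest of its group.

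Embryonic and cardiac forms of the sarcomere proteins showed the same order. Cardiac alpha-actin, Actc1, the actin of immature fibers, measured 2137, 949 and 1057 normalized CPM at 1 week and 195, 94.6 and 174 at 3 weeks, and fell by 3.16 (SE 0.36, adjusted p = 0.00184). Myl4, the embryonic and atrial myosin light chain, measured 182, 99.1 and 77.3 against 6.87, 6.81 and 20.4, a log2 fold change of -3.28 (SE 0.58, adjusted p = 0.0168). Myh8, the perinatal myosin heavy chain, measured 1662, 473 and 631 against 97.6, 55.0 and 192, a log2 fold change of -3.0 (SE 0.62, adjusted p = 0.0283). In each of these 3 genes the groups were apart, although 1wk SBI replicate 1 supplied the highest value. Myh3, the embryonic myosin heavy chain that the study stained, measured 1445, 705 and 929.9 against 557, 97.5 and 258. Its groups did not overlap either, but its log2 fold change of -1.76 (SE 0.55) did not pass the test (adjusted p = 0.105), and the 3-week pools spread from 97.5 to 557. The sarcomeric myosin genes are near-identical in long stretches and reads may be split between them, so the values of single myosins are uncertain.

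The remaining called members, named after their values were seen where the naming rule did not reach them, were Ankrd1, a stretch-induced muscle ankyrin repeat protein (-2.76, adjusted p = 0.00142), cardiac troponin T Tnnt2 (-1.81, adjusted p = 0.0189), the myosin-binding protein Mybph (-1.14, adjusted p = 0.0412), the growth factor Igf2 (-1.67, adjusted p = 0.00863), sarcolipin Sln (-1.76, adjusted p = 0.0372), Chrna1 and Ncam1. Myog, the transcription factor myogenin that myoblasts turn on as they differentiate, passed the adjusted p without the fold cutoff. It measured 86.4, 105 and 52.9 normalized CPM at 1 week and 45.7, 39.9 and 44.7 at 3 weeks (log2 fold change -0.91, SE 0.19, adjusted p = 0.0175). Desmin (Des) had a log2 fold change of -0.0049 (adjusted p = 0.991) and Myod1 of -0.38 (adjusted p = 0.18). Over the fits without 1 pool the median of the list ran from -1.78 to -1.37 and its called genes from 5 to 13, with 5 without 1wk SBI replicate 1 or 3wk SBI replicate 2 and 11 without 3wk SBI replicate 3. Mymk and Actc1 were called in all 6 such fits. Mymx lost its call without 1wk SBI replicate 1 or 3wk SBI replicate 2 (adjusted p up to 0.0747), Myl4 without replicates 1 or 2 of either group (up to 0.0743), Myh8 without 1wk SBI replicate 1 or 3wk SBI replicates 1 or 2 (up to 0.101) and Sln without replicates 1 or 2 at 1 week or 2 or 3 at 3 weeks (up to 0.17). In these pools of whole muscle, fewer regenerating fibers and less RNA per fiber cannot be told apart.

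**Figure D3:**
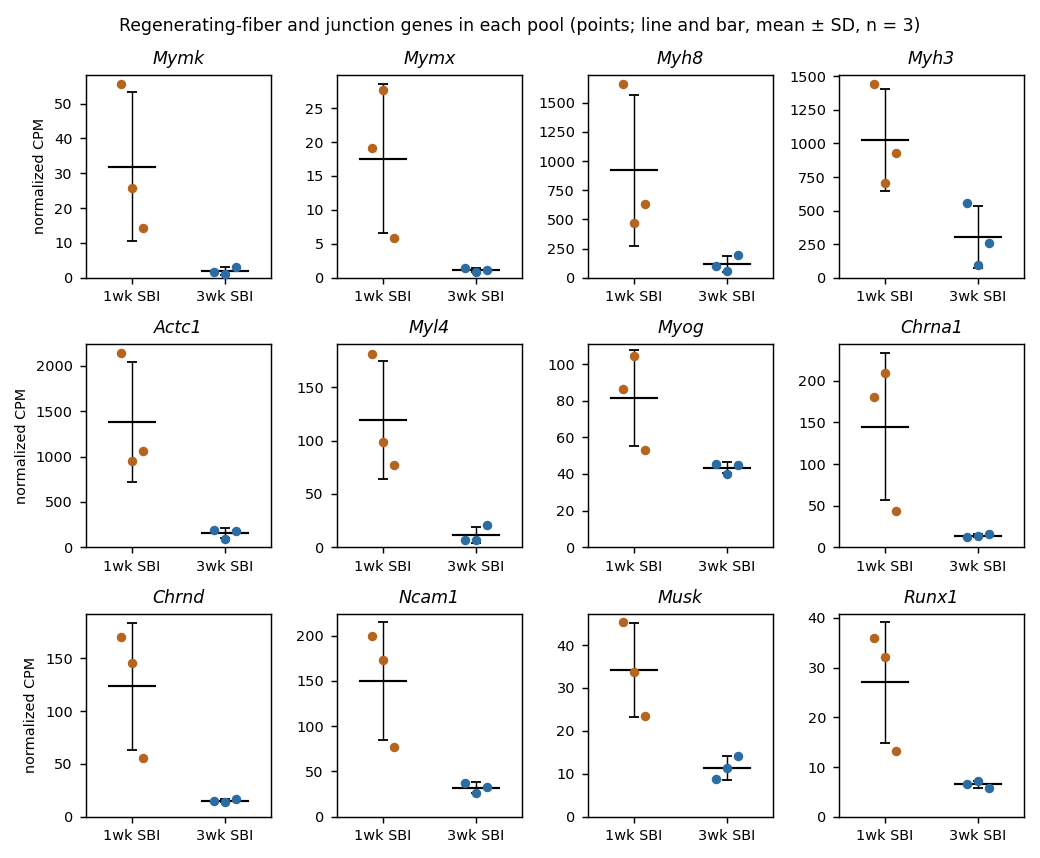
Normalized CPM of 12 regenerating-fiber and junction genes on linear axes from 0, in each 1wk SBI (brown) and 3wk SBI (blue) pool, with the mean as a line and the SD as a bar, n = 3. All 12 genes have every 3-week pool below every 1-week pool (11.4% of all genes tested do), among them Myh3 and Myog, which were not called. The rest were drawn because they were called, so their separation largely follows from that choice and adds no support.

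Some genes of the neuromuscular junction, 2 receptor subunits among them, also fell. Of 24 tested genes of a junction and denervation list, 7 were called lower and 0 higher, with a median of -0.51 on the log2 scale. The shares over all genes tested were 1.1% lower and 0.37% higher. Chrna1, the alpha subunit of the muscle acetylcholine receptor, measured 181, 209.5 and 43.9 normalized CPM at 1 week and 12.4, 13.4 and 15.6 at 3 weeks, a log2 fold change of -3.37 (SE 0.57, adjusted p = 0.0148). Chrnd, the delta subunit, measured 169.9, 145 and 55.6 against 15.2, 13.7 and 17 and fell by 3.0 (SE 0.38, adjusted p = 0.00515). The 3-week pools lay close together and the 1-week pools spread more widely, replicate 3 again lowest. Chrng, the gamma subunit of the fetal receptor, had a log2 fold change of -0.69 (adjusted p = 0.00967), under the fold cutoff, from a mean of 119 to 73.8 normalized CPM, and Chrne, the epsilon subunit of the adult receptor, had -0.46 (adjusted p = 0.529). Ncam1, the neural cell adhesion molecule of regenerating and denervated fibers, measured 200.1, 173 and 76.5 against 37.2, 25.7 and 33.3 (-2.23, SE 0.35, adjusted p = 0.00863). Musk, the receptor kinase that clusters acetylcholine receptors, measured 45.5, 33.6 and 23.4 against 8.69, 11.3 and 14.2 (-1.54, SE 0.24, adjusted p = 0.00658). Runx1, a transcription factor induced by denervation, fell by 2.08 (adjusted p = 0.00815) and the stress gene Gadd45a by 1.54 (adjusted p = 0.00514). Of the genes of the mature synapse, Ache (+0.61, adjusted p = 0.0303) and its collagen tail Colq (+0.67, adjusted p = 0.0309) were higher below the fold cutoff. The called junction genes numbered 4 to 9 over the fits without 1 pool and 7 without 3wk SBI replicate 3. Chrna1 lost its call without replicates 1 or 2 of either group (adjusted p up to 0.0743), and Ncam1 without 3wk SBI replicate 2 (0.0507). Schwann cell and nerve genes gave 0 called of 22, with the 2 smallest adjusted p for Erbb3 (0.225) and Dhh (0.259).

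The promoters of several of these genes are shown because the genes moved together. The RefSeq table of rat build GRCr8 held a window for 11 of the 17 genes called lower in the regenerating-fiber and junction lists. The 250 bases before each start were searched for CAGCTG, an E-box of the kind that myogenic factors bind, which reads the same on both strands. It was present in 5 of the 11 genes, Chrna1, Musk, Myl4, Mymx and Tnnt2, and in 12.9% of the 27457 genes with a window, counting a gene when any of its windows held it. The match is a description of letters, the set is small, and the genes were chosen by their fall. The windows of 3 holders and of Chrnd, whose window holds no copy, are given 5′ to 3′ in lower case with the motif in capitals. The motif begins 75 and 27 bases before the start in Chrna1, 79 in Musk and 41 in the first of the 3 windows of Mymx. Only CAGCTG was searched, so other E-boxes, such as the cacctg in the Chrnd window, are not marked or counted.
Chrna1, chr3:78877354-78877603, minus strand: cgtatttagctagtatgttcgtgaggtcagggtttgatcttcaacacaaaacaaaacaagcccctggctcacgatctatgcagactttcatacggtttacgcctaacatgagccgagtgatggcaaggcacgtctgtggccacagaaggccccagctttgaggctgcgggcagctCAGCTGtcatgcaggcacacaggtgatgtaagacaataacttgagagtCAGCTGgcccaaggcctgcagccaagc
Musk, chr5:77853486-77853735, plus strand: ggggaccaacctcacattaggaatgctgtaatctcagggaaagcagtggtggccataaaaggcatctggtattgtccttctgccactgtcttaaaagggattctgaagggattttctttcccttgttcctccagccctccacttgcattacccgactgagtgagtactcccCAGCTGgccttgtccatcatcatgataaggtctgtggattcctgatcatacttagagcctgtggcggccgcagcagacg
Mymx, chr9:22894274-22894523, plus strand: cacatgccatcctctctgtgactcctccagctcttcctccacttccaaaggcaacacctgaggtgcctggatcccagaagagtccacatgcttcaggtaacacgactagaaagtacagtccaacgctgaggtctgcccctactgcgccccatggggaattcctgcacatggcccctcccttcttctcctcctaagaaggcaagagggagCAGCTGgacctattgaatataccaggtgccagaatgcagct
Chrnd, chr9:95310066-95310315, plus strand: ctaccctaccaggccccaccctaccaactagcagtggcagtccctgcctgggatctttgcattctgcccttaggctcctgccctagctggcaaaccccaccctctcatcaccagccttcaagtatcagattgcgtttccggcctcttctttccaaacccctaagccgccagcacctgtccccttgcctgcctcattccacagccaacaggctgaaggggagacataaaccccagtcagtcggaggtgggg

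Of 22 tested satellite cell and myoblast genes 1 was called lower, Musk, which the list shares with the junction, against 1.1% of all genes. The median log2 fold change of the list was -0.15. Without 3wk SBI replicate 3 there were 3 called lower and a median of -0.25. Genes of mitosis and DNA replication had a median of -1.06 over 51 tested rows, and 2 were called lower and 0 higher. In 21 of the 51 rows every 3-week pool lay below every 1-week pool, against 11.4% of all genes tested. Foxm1, a transcription factor of the G2 and M phases, had 64 counts over the 1wk SBI pools and 0 in each 3wk SBI pool. It was at least 14.1-fold lower when 3 counts are allowed over the 3-week group. Prc1, a protein of the spindle midzone, measured 7.32, 3.85 and 4.08 normalized CPM against 1.61, 2.23 and 2.71 (log2 fold change -1.16, adjusted p = 0.0461). Both calls were lost in several fits without 1 pool, Foxm1 without either of replicates 1 and 2 at 1 week or any 3wk SBI pool (adjusted p up to 0.102) and Prc1 without replicates 1 or 2 of either group (up to 0.29). Without 3wk SBI replicate 3, a fit that keeps the shallowest libraries at 3 weeks, the list had 19 genes called lower and a median of -1.56. With all libraries thinned to equal depth 0 were called lower, Prc1 lost its call and the median was -0.98.

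**Figure D4:**
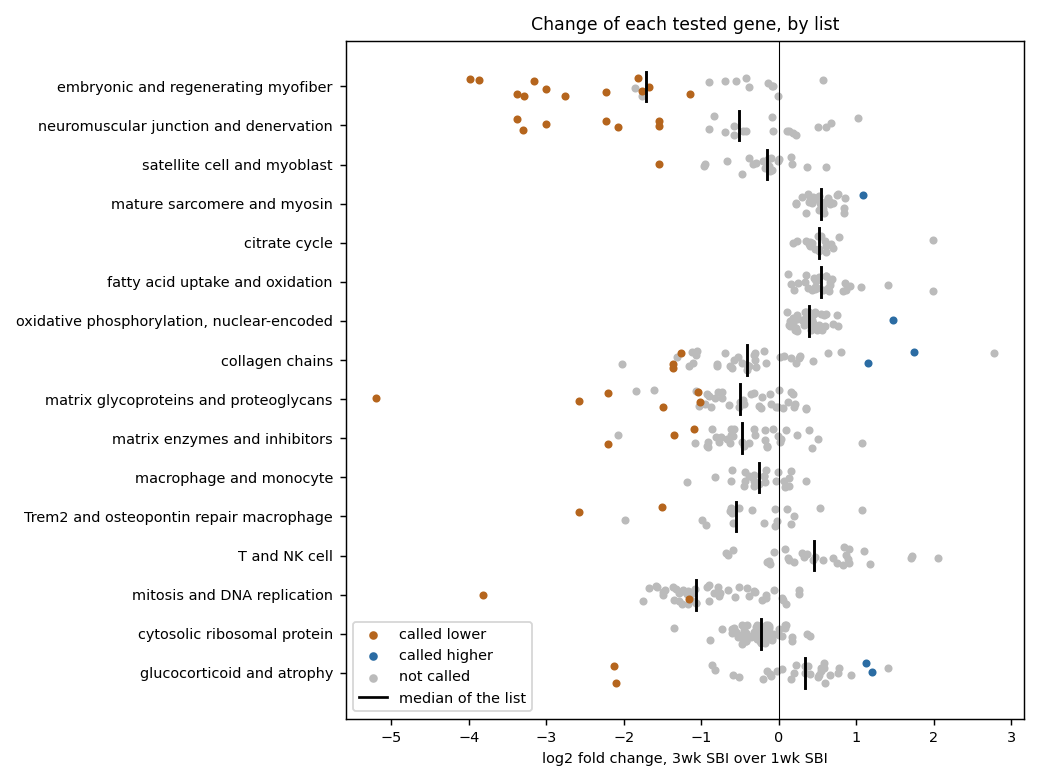
The log2 fold change of 3wk SBI over 1wk SBI for every tested gene of 16 lists, with called genes in color and the median of each list as a black bar, and Foxm1 drawn at its bound. The regenerating fiber list has the lowest median of those drawn (-1.72), whereas sarcomere, citrate cycle and fatty acid genes lie to the right of 0. These 3 lists have 0 or 1 gene called higher each, against 0.37% of all genes tested.

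Mature muscle and energy genes stood to the other side of 0, mostly with changes under 2-fold. Over all genes tested 0.37% were called higher and 2.64% were higher by adjusted p. The median log2 fold change over all tested genes was -0.01. All 29 tested genes of the mature sarcomere had a log2 fold change above 0 (median 0.54), and 1 was called higher. This was Myl2, the slow and cardiac regulatory light chain, with 209, 296 and 412 normalized CPM at 1 week and 888, 583 and 478 at 3 weeks (log2 fold change 1.09, SE 0.27, adjusted p = 0.0335). Its call was lost without replicates 1 or 2 of either group (adjusted p up to 0.153). The citrate cycle list had 19 of 19 log2 fold changes above 0, a median of 0.51 and 4 genes higher at an adjusted p under 0.05, 0 of them past the fold cutoff. Idh3g, a subunit of isocitrate dehydrogenase, had 0.78 (adjusted p = 0.0194) and Sucla2, of succinyl-CoA ligase, 0.70 (adjusted p = 0.0159). Fatty acid uptake and oxidation genes had 30 of 30 above 0, a median of 0.54 and 5 higher by adjusted p, among them the beta-oxidation enzymes Acaa2 (0.92, adjusted p = 0.0191) and Ech1 (0.86, adjusted p = 0.0157). For nuclear genes of oxidative phosphorylation 45 of 45 lay above 0, with a median of 0.39, 4 higher by adjusted p and 1 called, Cox7a1 (1.48, adjusted p = 0.028). Cox7a1 was at 0.497 to 0.726 normalized CPM at 1 week and 1.30 to 2.15 at 3 weeks and lost its call without replicates 1 or 2 of either group (adjusted p up to 0.157). The 13 mitochondrially encoded genes had a median of 0.53 and 0 passed, the 2 smallest adjusted p being 0.0951 for Mt-nd1 and 0.103 for Mt-nd2. Glycolysis and glycogen genes had a median of 0.39 with 1 of 24 higher by adjusted p, Ppp1r3a, a subunit that targets a phosphatase to glycogen (0.75, adjusted p = 0.0155), while Eno1, the non-muscle enolase, had -0.37 (adjusted p = 0.0988). Calcium handling genes had a median of 0.35, 2 of 20 higher and 2 lower by adjusted p, and 1 called lower, sarcolipin. Without 3wk SBI replicate 3 the genes higher by adjusted p numbered 14 for the sarcomere, 13 for the citrate cycle, 17 for fatty acids, 17 for oxidative phosphorylation, 8 for glycolysis, 6 for calcium handling and 4 for the mitochondrially encoded genes. In that fit Ech1 (1.02) and Acaa2 (1.01) passed the fold cutoff, the 2 called of the fatty acid list. Without 1wk SBI replicate 3 they numbered 18, 16, 18 and 26, and without replicate 1 or 2 of either group each of the 4 counts was 0. Every 3wk SBI pool lay above every 1wk SBI pool for 10 of 29 sarcomere, 9 of 19 citrate cycle, 12 of 30 fatty acid and 9 of 45 oxidative phosphorylation genes. Over all genes tested the share was 10.2%.

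A minority of matrix genes was called, mostly lower. Of 41 tested matrix glycoproteins and proteoglycans 6 were called lower and 0 higher (median -0.50). Among all genes tested 1.1% were called lower and 0.37% higher. Tnn, tenascin W of forming connective tissue, measured 13.4, 26.9 and 10.2 normalized CPM at 1 week against 0.215, 0.0619 and 0.660 at 3 weeks, the largest fall of the naming rule (log2 fold change -5.19, SE 0.73, adjusted p = 0.0062). Its counts at 3 weeks were few, and its value ran from -7.11 without 3wk SBI replicate 3 to -4.75 in the other such fits. Cthrc1, a collagen triple helix repeat protein of activated fibroblasts, measured 29.9, 25.3 and 20 against 3.86, 1.98 and 8.86 (-2.21, SE 0.48, adjusted p = 0.0303). Bgn, the small proteoglycan biglycan, measured 445, 349 and 302 against 98.7, 109 and 180.4 (-1.49, SE 0.24, adjusted p = 0.0077). In all 3 genes the 3-week replicate 3 held the highest value of its group and still lay below the 1-week pools. Bgn and Tnn were called in every fit without 1 pool, whereas Cthrc1 lost its call without replicates 1 or 2 of either group (adjusted p up to 0.141).

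Of 39 collagen chains tested 3 were called lower and 2 higher, against 1.1% and 0.37% of all genes, with a median of -0.41. The fibrillar chain Col11a1 (-1.36, adjusted p = 0.0136), the fibril-associated Col12a1 (-1.36, adjusted p = 0.015) and the short-chain Col8a1 (-1.27, adjusted p = 0.00534) fell. Col22a1, a chain of the myotendinous junction, measured 0.769, 0.793 and 0.867 against 1.82, 1.05 and 4.73 (log2 fold change 1.74, adjusted p = 0.0335). Col1a1, the main chain of type I collagen that the study stained as protein, measured 2771, 2055 and 1759 against 702, 580.1 and 1757 normalized CPM. With all pools its log2 fold change of -1.11 (SE 0.45) did not pass (adjusted p = 0.186), and the 3-week replicate 3 all but equalled the lowest 1-week pool. Without that library it was -1.77 (adjusted p = 0.0173), and 13 collagen chains were called lower in place of 3. The median of the chains was then -0.68. Col22a1 then had 0.79 (adjusted p = 0.215). Its call was also lost without 1wk SBI replicates 1 or 2, that of Col11a1 without 1wk SBI replicate 1 or 3wk SBI replicates 1 or 2 (adjusted p up to 0.0738) and that of Col12a1 without 1wk SBI replicates 1 or 2 or 3wk SBI replicate 2 (up to 0.0803).

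Matrix enzymes and inhibitors had 3 of 37 called lower and 0 higher (median -0.48), against 1.1% and 0.37% of all genes. These were the collagen prolyl hydroxylase P4ha3 (-2.20, adjusted p = 0.0191), the metalloproteinase Mmp19 (-1.35, adjusted p = 0.00838) and Adam19 (-1.10, adjusted p = 0.0473). Adam19, a membrane-bound metalloproteinase, was the 1 called gene whose groups overlapped, with 61.3 in 1wk SBI replicate 3 and 63.0 in 3wk SBI replicate 3. Activated fibroblast genes had 3 of 23 lower and 0 higher (median -0.48), namely Cthrc1, Runx1 and Lrrc15, a surface protein of matrix-forming fibroblasts (-2.14, adjusted p = 0.0321). P4ha3, Adam19 and Lrrc15 lost their calls without replicates 1 or 2 of either group (adjusted p up to 0.0939, 0.204 and 0.133) and Mmp19 without 3wk SBI replicate 2 (0.051). Without 3wk SBI replicate 3 the called genes numbered 16 for glycoproteins, 11 for matrix enzymes and 7 for activated fibroblasts, all lower. The list medians were then -0.84, -0.84 and -0.80.

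In leukocyte genes 3wk SBI replicate 3 stood apart from the rest of its group. Of 25 macrophage and monocyte genes 0 were called, with a median of -0.26, where 0.37% of all genes were called higher and 1.1% lower. Their summed level was 1435 to 1542 normalized CPM in 1wk SBI and 909.7, 1008 and 2115 in 3wk SBI replicates 1 to 3. In nursing rats the deepest 3-week pool, 3wk SBI + Lac replicate 2 (70187854 counts), also had the highest sum of its group. Replicates 1 to 3 there measured 705, 1030 and 622. The T and NK cell sum was not highest in that pool (50.4, 45.8 and 45.2). Whether depth bears on these levels was not tested. Ptprc, the pan-leukocyte antigen CD45, measured 21.1, 26.4 and 19.3 at 1 week and 16.6, 13.0 and 30.7 at 3 weeks (log2 fold change -0.11, adjusted p = 0.88). Cd68, a lysosomal protein of macrophages, measured 33.5, 26.8 and 27.0 against 17.2, 18.3 and 27.7 (-0.44, adjusted p = 0.199). Cd163, the hemoglobin scavenger receptor of resident and repair macrophages, measured 37.2, 41.9 and 37.3 against 36.7, 30.0 and 61.3 (0.16, adjusted p = 0.735). For all 3 markers the library 3wk SBI replicate 3 was the highest of its group and the groups overlapped. Mpeg1, a pore protein of macrophages, had -0.82 (adjusted p = 0.201). Without that library the median of the list was -0.71, 2 genes were called lower, Mpeg1 among them (-1.32, adjusted p = 0.0194), and Cd68 had -0.71 (adjusted p = 0.019), Ptprc -0.60 (0.161) and Cd163 -0.22 (0.375).

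Of 22 genes tied to Trem2-positive and osteopontin-positive macrophages 2 were called lower and 6 were lower by adjusted p, with a median of -0.55. Without 3wk SBI replicate 3 these counts were 4 and 10 and the median -0.66. With all pools 1.1% of all genes were called lower and 2.43% were lower by adjusted p. Spp1, osteopontin, measured 28.3, 56.3 and 28.7 normalized CPM against 5.26, 10.7 and 3.76 (log2 fold change -2.58, SE 0.39, adjusted p = 0.0077). Gpnmb, a lysosomal glycoprotein of phagocytes, measured 135, 215 and 133 against 46.8, 60.2 and 61.7 (-1.51, SE 0.21, adjusted p = 0.00428). Both groups of values were well apart and both calls held in every fit without 1 pool. Other cells express these genes too, and which cells gave the reads was not tested.

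The other immune lists gave 0 to 2 calls each with all pools, where 0.37% of all genes were called higher and 1.1% lower. Several of these counts changed without 3wk SBI replicate 3. T and NK cell genes had 0 of 30 called, and their median of 0.46 turned to -0.74 without 3wk SBI replicate 3, so no direction is given, with the 2 smallest adjusted p for Foxp3 (0.174) and Cd6 (0.178). B and plasma cell genes had 1 of 12 called lower, the signaling adaptor Blnk (-1.73, adjusted p = 0.0109), whose call was lost without 1wk SBI replicates 1 or 2 or 3wk SBI replicate 2 (adjusted p up to 0.062), while the summed level of the list was 54.3, 55.6 and 404 in the 3wk SBI pools against 61.3 to 67.1 at 1 week. In 3wk SBI + Lac replicates 1 to 3 that sum was 126, 333 and 56.7. The median of the B and plasma cell list, 0.25, turned to -0.84 without 3wk SBI replicate 3, and 2 genes were called lower. Neutrophil and mast cell genes had 0 of 12 called, the 2 smallest adjusted p being 0.135 (Tpsab1) and 0.241 (Retnlg). Without 3wk SBI replicate 3 Retnlg, a neutrophil resistin-like protein, was called lower (-3.77, adjusted p = 0.00862), the 1 call of that list, and the median went from -0.07 to -0.70. Dendritic cell and MHC class II genes had 0 of 23 called, led by Siglech (adjusted p = 0.119) and Irf8 (0.289). Without that library 4 were called lower, among them Siglech (-2.72, adjusted p = 0.0444), a lectin of plasmacytoid dendritic cells, and the transcription factor Irf8 (-1.53, adjusted p = 0.0419), and the median went from 0.0071 to -0.40. Interferon-stimulated genes had 0 of 43 called (median 0.05), led by Ifi44 (0.141) and Igtp (0.53). Of 47 cytokine, chemokine and receptor genes 1 was called, the TWEAK receptor Tnfrsf12a, which measured 9.92, 11.8 and 10.9 against 6.22, 2.85 and 3.74 (-1.41, SE 0.23, adjusted p = 0.00534), and 2 were called lower without 3wk SBI replicate 3, where the median went from -0.03 to -0.43. Of 22 complement genes 2 were called lower, and 4 without that library, where the median went from -0.19 to -0.64. Clu, the secreted chaperone clusterin, measured 329, 384 and 216 against 81.5, 86.9 and 84.3 (-1.88, SE 0.22, adjusted p = 0.00142), and the inhibitor Cfi had -1.62 (adjusted p = 0.0136), a call lost without 1wk SBI replicates 1 or 2 or 3wk SBI replicate 2 (up to 0.0738).

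The genes that rose were a mixed group. Anxa8, a calcium-dependent membrane-binding annexin, rose most under the naming rule, from 0.336, 0.371 and 0.351 normalized CPM to 11.2, 4.95 and 4.84 (log2 fold change 4.26, SE 0.40, adjusted p = 0.00011). Sncg, gamma-synuclein of adipocytes and sensory neurons, rose from 7.37, 5.48 and 5.67 to 26.8, 25.9 and 23.5 (2.03, SE 0.18, adjusted p = 7.74e-05). Ces1d, a carboxylesterase of adipose tissue and liver, rose from 3.08, 4.25 and 4.78 to 18.6, 16.0 and 15.9 (2.06, SE 0.29, adjusted p = 0.00428). All 3 had every 3-week pool at more than 3 times every 1-week pool. Chac1, a glutathione-degrading enzyme of the stress response, rose by 2.04 on the log2 scale (adjusted p = 0.00469) and its activator Atf4 by 0.73 (adjusted p = 0.0117). Kif5a, a kinesin heavy chain of neurons, rose by 1.86 (adjusted p = 0.00306), and Gucy2g, a guanylyl cyclase, by 1.87 (adjusted p = 0.00815, and 0.054 in a fit of only the 6 non-lactating libraries). Gsn, the actin-severing gelsolin, rose from 436, 711 and 754 normalized CPM to 1487, 2000.2 and 1506 (1.39, SE 0.21, adjusted p = 0.00469). Asb11, a ubiquitin ligase subunit of muscle, rose by 1.39 (adjusted p = 0.00784), and Ddit4l, an inhibitor of mTOR signaling, by 1.34 (adjusted p = 0.0136). The LIM protein Fhl3 (1.41, adjusted p = 0.0152), the kinase Sbk2 (1.81, adjusted p = 0.0496) and the water channel of fast fibers Aqp4 (1.36, adjusted p = 0.043) were also called. Without 1 pool Sbk2 (adjusted p up to 0.225), Aqp4 (0.166) and Fhl3 (0.0895) lost their calls in 4 or 5 of 6 fits, in each case without replicates 1 or 2 of either group, and Sbk2 also without 1wk SBI replicate 3. Ddit4l lost its call without 1wk SBI replicate 1 or 3wk SBI replicate 2 (up to 0.0787).

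Hormone-responsive and clock genes rose in part. Of 33 glucocorticoid and atrophy genes 9 were higher and 3 lower by adjusted p, and 2 were called each way, or 3 each way without 3wk SBI replicate 3. Over all genes 2.64% were higher and 2.43% lower by adjusted p, and 0.37% were called higher and 1.1% lower. Fkbp5, a co-chaperone induced by the glucocorticoid receptor, rose from 6.41, 6.12 and 7.10 to 17.8, 13.4 and 14.3 normalized CPM (log2 fold change 1.2, SE 0.21, adjusted p = 0.00838). Klf15, a Kruppel-like factor of the same kind, rose from 16.0, 22.1 and 26.4 to 57.2, 45.9 and 38.8 (1.13, SE 0.20, adjusted p = 0.00921). The metallothioneins Mt1 (-2.10, adjusted p = 0.00727) and Mt2A (-2.12, adjusted p = 0.00815), metal-binding proteins of the same list, fell, from 9.04 to 22.3 at 1 week to 2.41 to 4.36 at 3 weeks for Mt1. The list thus did not move one way. Klf15 lost its call without 1wk SBI replicate 1 or 3wk SBI replicate 1, where its log2 fold change was under 1 (0.95 at its lowest). Of 21 clock genes 3 were higher by adjusted p and 1 was called, the repressor Nr1d1, from 68.5, 73.8 and 86.8 to 195, 216 and 146 (1.28, SE 0.30, adjusted p = 0.0356), a call lost without replicates 1 or 2 of either group (adjusted p up to 0.175). The hour at which muscles were taken is not given in the sources used here. Of 14 steroid, prolactin, oxytocin and relaxin receptor and signaling genes 2 were higher by adjusted p and 0 called, Stat5b (0.69, adjusted p = 0.0136) and Nr3c2 (0.42, adjusted p = 0.0349).

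Growth factor and lipid genes gave single large falls. Of 42 genes of the insulin-like growth factor and TGF-beta families 3 were called lower and 1 higher, or 4 and 1 without 3wk SBI replicate 3. For this and the lipid lists below, 1.1% of all genes were called lower and 0.37% higher. Igf2, a fetal growth factor of regenerating muscle, measured 1088, 501 and 685 normalized CPM against 164, 272 and 276 (log2 fold change -1.67, SE 0.29, adjusted p = 0.00863). The binding protein Igfbp4 (-1.32, adjusted p = 0.0201) and the BMP antagonist Chrd (-1.19, adjusted p = 0.0157) fell and the binding protein Igfbp3 rose (1.04, adjusted p = 0.0192). Igfbp4 lost its call without replicates 1 or 2 of either group (adjusted p up to 0.102), and Chrd (0.09) and Igfbp3 (0.0927) without 1wk SBI replicates 1 or 2 or 3wk SBI replicate 2. Scd, stearoyl-CoA desaturase, measured 829, 495 and 356 against 136, 52.1 and 129 (-2.40, SE 0.38, adjusted p = 0.00863). Together with its relative Scd2 (-1.08, adjusted p = 0.00815) it made up the 2 called of 27 lipid synthesis genes, whose median was -0.12, and 3 were called lower without 3wk SBI replicate 3. Scd2 lost its call without 1wk SBI replicate 1 or 3wk SBI replicate 2 (adjusted p up to 0.0501, log2 fold change -0.94 at the smallest). Of 20 adipocyte genes 1 was called higher, Sncg, and 2 lower, Scd and the lipogenic factor Thrsp (-2.02, adjusted p = 0.0285, lost without replicates 1 or 2 of either group, up to 0.103). The adipocyte list summed to 11150.5 to 12870.4 normalized CPM at 1 week and 9099.6 to 12723.5 at 3 weeks.

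Other large falls had no common list. Klk1, tissue kallikrein, measured 85.8, 71.3 and 34.3 normalized CPM against 6.76, 4.64 and 6.48 (log2 fold change -3.42, SE 0.34, adjusted p = 0.00142). Slc51a, a subunit of an organic solute transporter, measured 29.9, 15.2 and 9.51 against 1.29, 0.743 and 1.37 (-3.94, SE 0.62, adjusted p = 0.00863). Adra1b, an alpha-1 adrenergic receptor, measured 8.80, 12.0 and 2.55 against 0.858, 0.186 and 0.576 (-3.89, SE 0.65, adjusted p = 0.00838). In each of the 3 the 1-week pools were all above the 3-week pools. Slc51a lost its call without 3wk SBI replicate 2 (adjusted p = 0.0518), and Klk1 and Adra1b kept theirs in all 6 such fits.

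Lists of vascular, epithelial and blood cells that the tissue piece could hold gave 0 to 1 call each with all pools. Over all genes 0.37% were called higher and 1.1% lower. Endothelial and angiogenesis genes had 0 of 33 called, with Angpt1 at 0.56 (adjusted p = 0.0239) and Vcam1, an adhesion molecule of activated endothelium, at -0.82 (adjusted p = 0.105). Vcam1 was called lower without 3wk SBI replicate 3 (-1.29, adjusted p = 0.0068), the 1 call of the list in that fit. Smooth muscle and pericyte genes had 1 of 17 called, the enteric actin Actg2 (-1.32, adjusted p = 0.0472), a call lost without either of replicates 1 and 2 at 1 week or any 3wk SBI pool (up to 0.27), and without 3wk SBI replicate 3 the list had 1 gene called higher and 0 lower. The summed level of squamous and vaginal epithelium genes was 6.49 to 10.5 normalized CPM at 1 week and 6.57 to 7.24 at 3 weeks, and 0 of 7 were called, with adjusted p of 0.224 (Pkp1) and 0.286 (Sfn) at the smallest. Milk and mammary genes had 0 of 8 called, with Xdh (0.38) and Epcam (0.626) the smallest. Of 11 erythroid genes 1 was called lower, the beta-globin Hbb (-1.16, adjusted p = 0.0286), lost in the fits without any pool other than 3wk SBI replicate 3 (up to 0.117). Hemoglobin genes took 0.0313% to 0.0429% of counts at 1 week and 0.00904% to 0.0202% at 3 weeks, so that the groups did not overlap, and 3 erythroid genes were called lower without 3wk SBI replicate 3. Heat shock and chaperone genes had 0 of 34 called, 1 higher by adjusted p (Atf4) and 4 lower, among them Dnaja1 (-0.49, adjusted p = 0.0231). Of 71 rows of cytosolic ribosomal protein genes 0 were called (1 lower without 3wk SBI replicate 3) and 14 were lower by adjusted p (median -0.23), against 2.43% of all genes. Rps28 (-0.61, adjusted p = 0.00428) and Rps12 (-0.73, adjusted p = 0.00567) led. These are families with many near-identical copies that a counting method can split differently.

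The course in nursing rats gives a comparison in which the counting difference enters both sides. Of the 215 called genes 206 had the same sign of change from 1wk SBI + Lac to 3wk SBI + Lac. The share of such genes over all genes tested was not counted. The counting difference lies between the same time points in both courses, so for this agreement time and counting cannot be told apart. Mymk went from 10.3, 7.56 and 10.6 to 1.30, 0.748 and 1.10 normalized CPM there (log2 fold change -3.25, adjusted p = 0.0262) and Myh8 from 177, 220.1 and 303 to 58.5, 29.8 and 26.5 (-2.60, adjusted p = 0.0658). In the test of the difference between the 2 courses, 1 of the 14596 genes passed both cutoffs, 0.00685% of those tested, and 645 had an unadjusted p under 0.05. The gene was Sncg, which rose in non-lactating rats and in the nursing rats measured 11.3, 11.3 and 16.0 at 1 week and 10.1, 10.1 and 6.92 at 3 weeks (log2 fold change -0.48, adjusted p = 0.166). The difference of the 2 changes was 2.51 on the log2 scale (SE 0.25, adjusted p = 0.000615). Angptl4, a lipoprotein lipase inhibitor named after its values were seen, came next among genes with a symbol, with a difference of 4.38 (SE 0.66, adjusted p = 0.0525). For the fusion, sarcomere and receptor genes named above the difference did not pass, for example Mymk (-0.61), Actc1 (-1.03) and Chrna1 (-0.85, each with an adjusted p of 0.999), which does not show that the courses were alike.

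**Figure D5:**
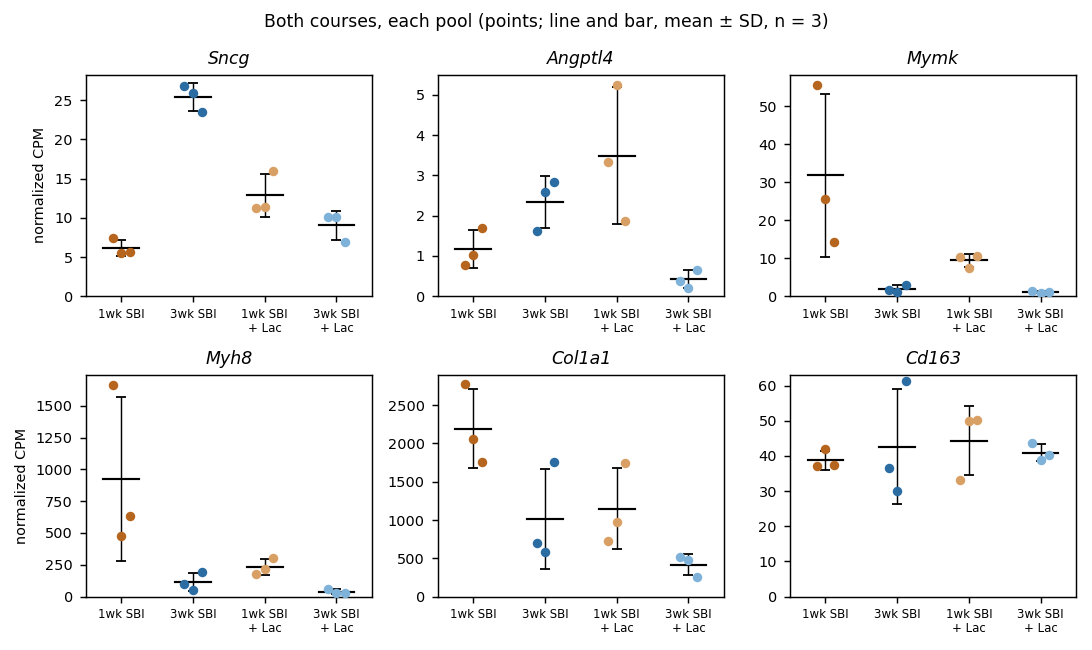
Normalized CPM of 6 genes on linear axes from 0 in every pool of the 4 groups, with the mean as a line and the SD as a bar, n = 3. Sncg is highest in the 3wk SBI pools (23.5 to 26.8) and 6.92 to 16.0 in both nursing groups, while Mymk and Myh8 are lower at 3 weeks in both courses.

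Some genes had whole deposited values at 3 weeks as well. Of the 14596 genes tested 1145 had whole values in all 6 three-week libraries, most of them at low levels (median 0.40 normalized CPM against 10.2 over all genes). Normalized and tested alone they gave 6 genes called higher and 15 lower. Of the 26 genes called in the whole table that were among them, 19 were also called here and 26 of 26 had the same sign. This fit used the same counts of these genes, so a matching sign was nearly fixed in advance. It cannot tell time and counting apart. Among the genes described above, Adra1b, Slc51a and Foxm1 had whole values in all 3wk SBI pools, Tnn, Mymk, P4ha3, Lrrc15, Blnk, Cox7a1, Col22a1, Prc1 and Actg2 carried decimals in 1 of the 3, Mymx, Myl4, Sln, Col11a1, Runx1, Cfi, Thrsp, Mt1, Mt2A and Chrd in 2, and the other called genes of the naming rule in all 3.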

How the data were processed

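Bulk RNA sequencing of polyA RNA from rat pubocaudalis muscle gave 12 libraries, 3 per group, each a pool of RNA from 2 rats. Stranded mRNA libraries were sequenced as paired reads. For the 1-week libraries the deposited table holds whole counts per gene. For the 3-week libraries the authors deposited values with decimals, read here as estimated counts that are not normalized. These were rounded, although the design had assumed whole counts. Salmon is the 1 tool named in the submitters' processing notes, with no role or version. The genome build and annotation are not given in the sources used here. The study analysed counts with DESeq2.

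Columns were matched to groups by the sample labels. Genes were filtered with filterByExpr and scaled by TMM, and a robust quasi-likelihood model of the 4 groups was fitted to the 12 libraries (edgeR 4.0.16, R 4.3.3). P-values were adjusted by Benjamini-Hochberg. A call needed an adjusted p below 0.05 and a log2 fold change above 1 in size. Standard errors were taken from the log2 fold change and F. Contrasts were 3wk SBI against 1wk SBI, and the difference of this change from that in lactating rats. Normalized CPM are TMM-scaled, and means are given ± SD over 3 pools. Genes at 0 in all 1-week libraries with at least 100 counts over the 3-week libraries were left out. A count of 0 was read as at most 3 counts over the group, which covers counting error only.

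The comparison, the 38 gene lists and the rules were chosen with earlier results of these data known. Named genes were 6 that match the study's stains or leukocyte markers, per direction the 12 largest called changes among non-overlapping genes that have a symbol and average 5 normalized CPM or more at 1 time point, per list up to 4 called genes (otherwise the 2 smallest adjusted p), and up to 5 for the difference between courses. Lists share members and were not tested as sets. One called gene that these rules name is not reported here, although counts of lists include it.

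The same replicate number marks different rats at the 2 times, and deviations of same-numbered pools did not correlate positively (r = -0.10, -0.06 and -0.22), so pools were not paired. On simulated data for 3wk SBI against 1wk SBI (14331 genes), the test called 93 of 100 genes changed by 1.5 on the log2 scale, 98 of 100 changed by 3, all with the right sign, and 6 unchanged genes. Genes with the lowest means were not among those changed. The simulation held no outlying pool and no difference in counting, so these counts do not give the recovery to be had in the real pools. Other settings tried were DESeq2 1.42.0, normalization by RLE or upper quartile, other filters, thinning to equal depth, whole values only, a replicate block and leaving out each library. Promoter windows came from RefSeq (GRCr8), and figures were drawn with matplotlib.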

Additional observations from a re-analysis of the deposited data

Results flagged for a closer look

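Sncg, gamma-synuclein, was the 1 gene whose change from 1 to 3 weeks differed between non-lactating and lactating rats past both cutoffs. The difference of the 2 log2 fold changes was 2.51 (SE 0.25, edgeR, adjusted p = 0.000615), made of 2.03 without and -0.48 with lactation. All 3 of the 3wk SBI pools lay above all 9 other pools. Since Sncg alone passed among the 14596 genes, the count for the other 19 tested adipocyte genes is 0 by that fact. It does not show whether they moved with Sncg, and their part in the Sncg result was not tested.

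Outside the comparison, 30 genes had 0 counts in every 1-week library and at least 100 over the 3-week libraries, while 0 genes showed the opposite. Of these, 27 have no symbol and 27 also meet the rule when it is judged on the 6 non-lactating libraries. Time and counting cannot be told apart for them.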

How the results depend on the processing

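The 54 genes called higher and 161 called lower in 3wk SBI stayed within 1.5 times of these counts under RLE, upper-quartile, both DESeq2 fits, both count filters, equal depth, the kept absent genes and the reduced library size. They became 24 and 79 in a fit of only the 6 non-lactating libraries, 6 and 15 among genes with whole 3-week values, and 385 and 354 with no fold cutoff. The first 2 of these fits rest on fewer libraries and fewer genes. Leaving out 1 library at a time gave 17 to 135 higher and 54 to 448 lower. With the replicate block 44 were higher and 132 lower, and the numbers share no animals, so this is not a paired analysis. The 1 gene differing between the courses became 11 by DESeq2, 2 with no low-count filter, 2 with the replicate block, 2 at equal depth, 0 among whole-valued genes and 1 to 5 without 1 library. Over 6 fits without 1 library the log2 fold change of Ptprc ran from -0.60 to 0.13 and that of Cd163 from -0.22 to 0.36, neither called. No other named gene changed sign under any alternative run. Of 62 named genes called, 27 kept their call in each of these 6 fits and 35 lost it in at least 1, 31 without 1wk SBI replicate 1, 33 without 3wk SBI replicate 2 and 4 without 3wk SBI replicate 3. Under the alternatives that leave out no single pool, 22 of the 62 lost their call at least once, 20 in the fit of only the 6 non-lactating libraries (Myh8, Myl2, Cthrc1, P4ha3 and Chrd among them), 11 with the replicate block, 10 with no low-count filter, 5 at equal depth, 1 by DESeq2 on the 6 libraries (Aqp4) and 1 with the absent genes kept (Sbk2). Of the 22, Gucy2g was the 1 that kept its call whichever pool was left out. DESeq2 gave Foxm1 no adjusted p. The cause of these losses was not tested. At 10082734 counts the shallowest 3wk SBI library limits genes under 0.322 normalized CPM. Each alternative moved the median of all genes by under 0.1.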
